A study of Homo sapiens with 24 samples.

Results

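The S100 genes encode small calcium-binding proteins, and 10 of them, a list of symbols drawn up with earlier results of these data known, were followed here among the 28278 genes of a count table: S100A2, S100A4, S100A6, S100A8, S100A9, S100A10, S100A11, S100A13, S100A14 and S100A16. All 10 passed the filter on low counts, S100A8 only through its levels at days 3 and 6 of the ΔNp63 line. RNA was sequenced from TYUC-1, a line of human esophageal carcinoma cells of neuroendocrine type kept in suspension, in a line engineered to express TAp63 (genotype i-TAp63) and a line engineered to express ΔNp63 (genotype i-DNp63) under doxycycline at 1 µg/ml. Both are isoforms of the squamous-lineage transcription factor TP63, and ΔNp63 lacks the N-terminal transactivation domain that TAp63 carries. Each line was sampled after 0, 1, 3 and 6 days of doxycycline with 3 libraries per day, which gives 8 groups and 24 libraries.

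All groups shared a course of 6 days, in which the vehicle DMSO filled the days without doxycycline, so that the day 0 groups received 6 days of DMSO. A treatment label on every sample also names the EZH2 inhibitor EPZ-6438, which targets histone methylation, over the same number of days, while the titles, induction labels and series design name p63 induction alone. Days of induction therefore cannot be told apart from days of the inhibitor if it was used. The replicates are called biological, with no account of separate cultures or of how many clones each line holds, so a p-value reflects only how these libraries spread, which may be technical. TP63 itself rose from 2.93 ± 0.0361 CPM (counts scaled to the normalized library total; mean ± SD, n = 3) at day 0 to 655 ± 41.3 CPM at day 6 in the TAp63 line, and from 4.35 ± 0.517 to 926 ± 100 CPM in the ΔNp63 line.

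Library totals ran from 6375963 to 22019974 counts in 23 libraries. Replicate 3 of ΔNp63 day 1 stood apart, with 1530847 counts, 69.2 CPM of TP63 where the other replicates of the group held more, and a summed level of 9 erythroid markers of 3954 CPM, against 1.59 to 76.6 CPM in the other 23. Results that rest on it are marked, in most cases with an edgeR value without it. DESeq2 was not run without it. Of the neuroendocrine markers that the cells' label implies, SYP stood at 2.84 ± 0.373 CPM at day 0 of the ΔNp63 line, and CHGA (0.308 ± 0.0764 CPM) and INSM1 (0.375 ± 0.202 CPM) were near 0. A list of 7 tuft cell markers summed to between 703 and 731 CPM there, with SOX9 at 335 ± 5.3, POU2F3 at 196 ± 13.7 and TRPM5 at 2.26 ± 0.117 CPM, and CHAT at 1 count in the 3 libraries. In RNA from whole cultures, more cells that express a gene and more RNA per cell cannot be told apart.

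S100 proteins bind calcium through a pair of EF-hand motifs, change shape and then dock on target proteins, mostly as dimers. In stratified squamous epithelium such as that of the esophagus, several are abundant in particular layers: S100A2 in basal cells, S100A8 and S100A9 (the subunits of calprotectin) in differentiating or inflamed epithelium as well as in neutrophils and monocytes. S100A10 partners annexin A2 at the plasma membrane, S100A11 partners annexin A1, S100A6 binds the calcyclin-binding protein, S100A4 binds non-muscle myosin, and S100A13 takes part in the unconventional release of FGF1. S100A14 and S100A16 are epithelial members that are less well understood.

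All 10 genes lie on chromosome 1 (hg38), between S100A10 at chr1:151982916-151993859 and S100A13 at chr1:153618800-153634361. S100A9 (chr1:153357854-153361023) is the only one of the 10 on the plus strand. S100A2 (chr1:153561109-153565844), S100A14 (chr1:153614256-153616325) and S100A16 (chr1:153606883-153613137) are among the 8 that sit in the cluster that starts at S100A9. Promoter windows of 250 bases before the start were read from RefSeq (GRCh38.p14), where all 10 genes were found with 16 windows. The 4 stretches shown are each the part of a window that no GENCODE v29 exon covers. Their genes were picked by the calls against day 0 below, which are not by themselves a difference between the lines. S100A2 and S100A8 were called higher in the ΔNp63 line, and S100A16 in both lines. S100A9, the partner of S100A8, was not called. Capitals mark an AP-1 site in S100A2, a TATA box in S100A9 and 1 copy of the p53 family element in S100A16.
S100A2, chr1:153565866-153566094, minus strand: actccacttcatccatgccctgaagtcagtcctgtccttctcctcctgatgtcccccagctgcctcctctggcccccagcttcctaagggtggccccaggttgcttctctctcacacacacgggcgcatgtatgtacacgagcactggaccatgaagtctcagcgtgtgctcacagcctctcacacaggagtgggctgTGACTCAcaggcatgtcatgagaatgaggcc
S100A8, chr1:153391189-153391438, minus strand: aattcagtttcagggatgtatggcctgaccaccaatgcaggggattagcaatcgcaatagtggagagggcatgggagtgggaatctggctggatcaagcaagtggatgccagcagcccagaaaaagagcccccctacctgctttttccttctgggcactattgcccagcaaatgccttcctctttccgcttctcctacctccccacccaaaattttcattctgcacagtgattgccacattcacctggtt
S100A9, chr1:153357604-153357853, plus strand: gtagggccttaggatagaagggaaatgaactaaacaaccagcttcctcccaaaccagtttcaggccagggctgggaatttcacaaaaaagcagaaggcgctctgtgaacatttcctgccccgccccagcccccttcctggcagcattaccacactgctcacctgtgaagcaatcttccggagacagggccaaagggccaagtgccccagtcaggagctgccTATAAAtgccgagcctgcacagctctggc
S100A16, chr1:153613146-153613387, minus strand: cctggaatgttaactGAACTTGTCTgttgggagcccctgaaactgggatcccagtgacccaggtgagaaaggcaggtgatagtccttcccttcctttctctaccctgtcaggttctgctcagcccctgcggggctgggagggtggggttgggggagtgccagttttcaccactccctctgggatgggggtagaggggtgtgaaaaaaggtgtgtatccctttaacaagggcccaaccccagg

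The searches covered both strands of the 250 bases. The AP-1 site TGANTCA was in 1 of the 16 windows (S100A2, first base at -52 from the start), against 6.57% of all 35116 windows. The p53 family element, which p53 and p63 are known to bind in tandem copies, was also in 1 of the 16 (S100A16, at -235). It was in 5.57% of all windows. The S100A16 window held 1 copy and no tandem copy by this pattern. The TATA box TATAAA was in 5 windows of 4 genes (S100A4, S100A8, S100A9 and S100A13), against 10.7% of all windows. In S100A8 it lies in overlapping windows of other start sites, outside the stretch shown. Those windows hold the same site, which is thus counted more than once. All these motif hits are matches of letters and not evidence of binding.

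The called changes of the 10 genes were increases at days 3 and 6. In the TAp63 line, 3 of the 10 genes passed the test at day 3 and 4 at day 6, and in the ΔNp63 line 6 of 10 passed at each of those days. Both ΔNp63 counts include S100A8, which entered the test only through its levels in those ΔNp63 groups. S100A8 is also among the 10 genes of the medians below. The test was edgeR's quasi-likelihood test, with a call at a Benjamini-Hochberg adjusted p under 0.05 over 15642 genes. It was fitted on group means and did not pair libraries of the same replicate number. Over all genes tested, 0.428% were called higher in the TAp63 line at day 3 and 0.428% at day 6, and 1.66% and 1.62% in the ΔNp63 line. The median log2 change of the 10 genes was 0.64 and 0.67 in the TAp63 line at days 3 and 6, and 0.96 and 1.18 in the ΔNp63 line, against -0.0065, -0.0132, -0.0137 and -0.0069 over all genes tested. The comparisons of a line share its day 0 libraries, so days 3 and 6 are not independent. Leaving out any 1 of the 6 libraries compared left 1 call at TAp63 day 3, that of S100A16, and the TAp63 day 6 count fell to 1 or 2 without any day 0 library or without replicate 2 or 3 of day 6. The ΔNp63 day 3 count fell to 3 without replicate 1 or 2 of day 0.

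At day 1 no member was called by edgeR in either line (0.121% of all genes were called higher in the TAp63 line and 0.0895% in the ΔNp63 line). At an unadjusted p under 0.05 the count was 0 in the TAp63 line and 2 in the ΔNp63 line, while DESeq2 gave 0 and 1 calls (2.36% of all genes were higher by DESeq2 in the ΔNp63 line). The share of all genes under the unadjusted threshold was not computed, so the unadjusted counts here and below are given without it. TP63 was already at 371 ± 45.1 CPM at day 1 in the TAp63 line. From day 1 to day 3, edgeR called 3 members higher in the TAp63 line (S100A10, S100A13 and S100A16; 0.128% of all genes) and 4 in the ΔNp63 line (S100A8, S100A10, S100A14 and S100A16; 0.869% of all genes). The TAp63 count fell to 1, S100A16, without replicate 1 or 3 of day 1, without any 1 day 3 library or with only the groups compared in the fit. With only the groups compared the ΔNp63 count was 0, with adjusted p from 0.703 to 0.794 for the 4 genes. That fit held the library that stood apart, and leaving this library out of the main fit ended none of the 4 calls. The S100A14 call was also lost without any 1 ΔNp63 day 3 library. S100A8 entered the test only through its ΔNp63 levels at days 3 and 6. Between days 3 and 6 edgeR called none in either line (0% and 0.0128% of all genes). Without adjustment 1 member in the TAp63 line and 2 in the ΔNp63 line had p under 0.05, and DESeq2 called 0.

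The steps gave more calls once the replicate number was a block. The block alone called 7 members higher from day 1 to day 3 of the ΔNp63 line, in a fit that called 2.31% of all genes higher. With the block and without the library that stood apart, edgeR called 7 members in that step of the TAp63 line (2.5% of all genes) and 8 in the ΔNp63 line (3.69%). The same fit called S100A10 and S100A16 higher from day 3 to day 6 of the ΔNp63 line (log2 change 0.69 and 0.43, edgeR adjusted p = 0.00533 and 0.0136; 0.64% of all genes were called higher).

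**Figure D1:**
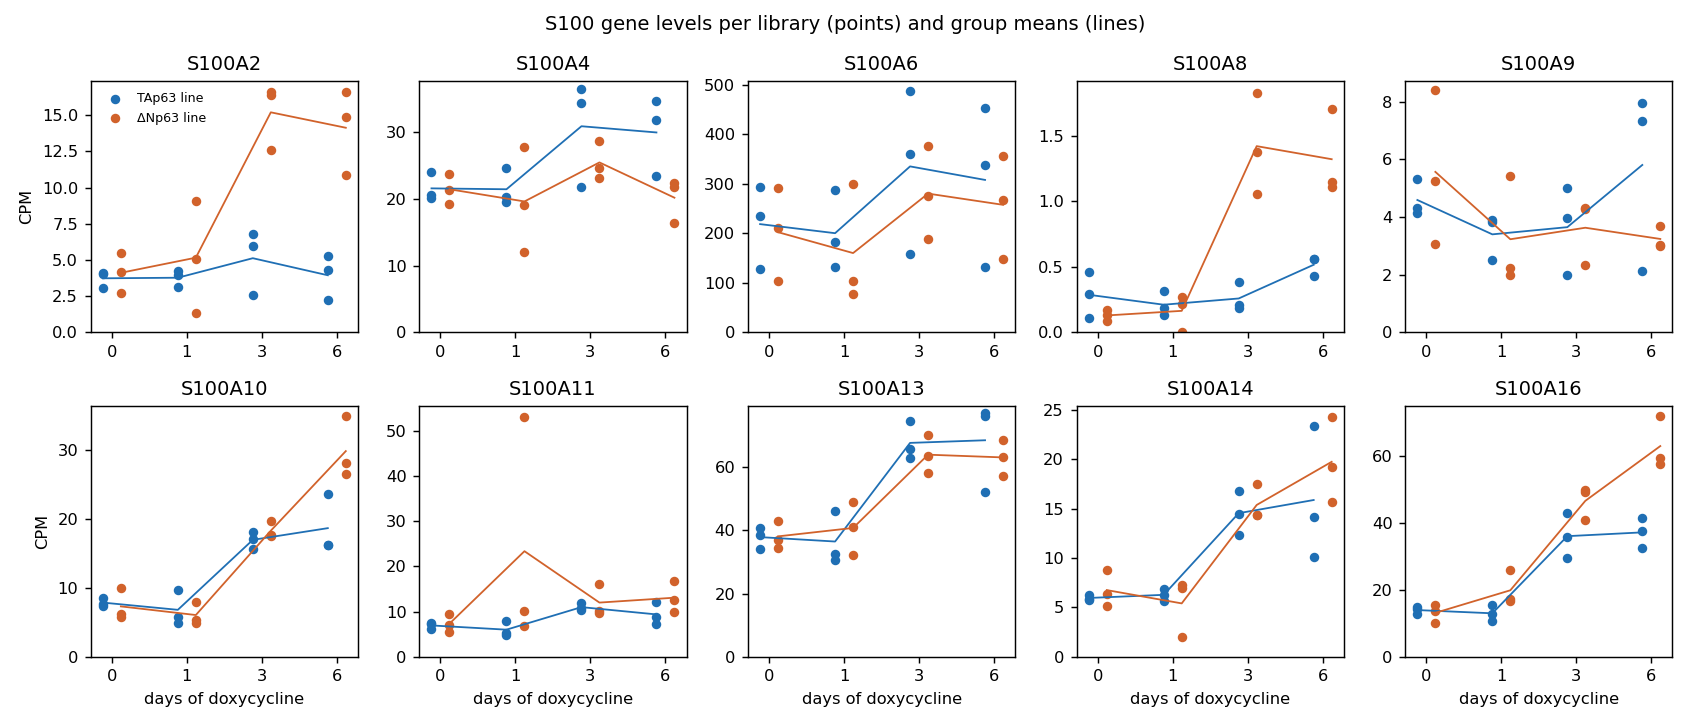
CPM, on the TMM-adjusted library total, of each of the 10 S100 genes against days of doxycycline, with a point per library and a line through the group means, blue for the TAp63 line and orange for the ΔNp63 line. S100A2, S100A8 and S100A11 lie apart from day 0 at days 3 and 6 in the ΔNp63 line, S100A11 also at day 3 in the TAp63 line, S100A10, S100A13, S100A14 and S100A16 do so in both lines, and the single high S100A11 point (53.2 CPM) is replicate 3 of ΔNp63 day 1. At day 1 S100A16 lies above day 0 in the ΔNp63 line and S100A9 below it in the TAp63 line. The share of all genes that lie apart from day 0 was not computed, here or for the overlaps given below.

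S100A16 rose in both lines at days 3 and 6, and its 4 calls held in each of the 13 alternatives run for them. Its TAp63 libraries stood at 14.9, 14.2 and 12.7 CPM in replicates 1 to 3 at day 0 and 37.6, 41.3 and 32.4 CPM at day 6. The ΔNp63 libraries went from 15.5, 13.6 and 10.2 CPM to 49.0, 49.6 and 40.9 CPM at day 3 and to 71.8, 59.2 and 57.5 CPM at day 6. In both lines all libraries of days 3 and 6 were above all of day 0. The ΔNp63 day 1 libraries, at 16.5, 17.1 and 25.9 CPM, were above day 0 too, the last being the library that stood apart. The log2 change at day 6 was 1.42 ± 0.19 (SE) in the TAp63 line (edgeR adjusted p = 0.000234). For the ΔNp63 line it was 1.83 ± 0.19 at day 3 and 2.27 ± 0.19 at day 6 (edgeR adjusted p = 4.89e-06 and 2.7e-07).

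S100A14, whose gene lies next to that of S100A16, rose as well. Its TAp63 libraries held 5.85, 5.75 and 6.26 CPM at day 0, 12.3, 14.5 and 16.8 CPM at day 3, and 10.1, 14.1 and 23.4 CPM at day 6. Those of the ΔNp63 line held 5.10, 6.36 and 8.79 CPM at day 0 and 15.7, 19.2 and 24.3 CPM at day 6. The groups did not overlap in either line, and the spread at day 6 of the TAp63 line was wide. By day 6 its log2 change was 1.41 ± 0.29 (edgeR adjusted p = 0.0233) in the TAp63 line and 1.54 ± 0.28 (adjusted p = 0.00333) in the ΔNp63 line. The TAp63 day 6 call was lost without any 1 day 0 library, without replicate 2 or 3 of day 6, or with only the groups compared. The ΔNp63 day 6 call was lost in none of 13 alternatives. At day 3 of the ΔNp63 line the change was 1.18 (adjusted p = 0.027), a call that 5 single libraries ended. At day 3 of the TAp63 line the change was 1.28, with an edgeR adjusted p of 0.0503 that missed the threshold and became 0.00738 with the replicate number as a block, a fit that called 0.793% of all genes higher.

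S100A10, the partner of annexin A2, stood at 7.70, 8.56 and 7.38 CPM at day 0 of the TAp63 line and at 16.2, 23.6 and 16.3 CPM at day 6. The ΔNp63 libraries were at 6.26, 9.94 and 5.78 CPM at day 0, at 19.7, 17.7 and 17.6 CPM at day 3, and at 28.2, 35.0 and 26.5 CPM at day 6. The day 6 libraries were above those of day 0 without overlap, and in the ΔNp63 line above those of day 3 too. Day 6 brought a log2 change of 1.25 ± 0.24 (edgeR adjusted p = 0.0162) in the TAp63 line and 2.03 ± 0.24 (adjusted p = 2.79e-05) in the ΔNp63 line. Leaving out any 1 day 0 library of the TAp63 line ended its calls there at days 3 and 6, while those of the ΔNp63 line held in all 13 alternatives.

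S100A13 changed least among the called genes and by similar amounts at days 3 and 6 in both lines. At day 0 it stood at 34.2, 40.9 and 38.6 CPM in the TAp63 line and at 34.6, 42.9 and 36.9 CPM in the ΔNp63 line. At day 6 it stood at 52.1, 76.4 and 77.2 CPM in the TAp63 line and at 57.4, 68.6 and 63.4 CPM in the ΔNp63 line. The log2 change was 0.84 and 0.85 at days 3 and 6 in the TAp63 line (edgeR adjusted p = 0.0322 and 0.0266) and 0.75 and 0.73 in the ΔNp63 line (adjusted p = 0.0255 and 0.031). Leaving out any 1 library of day 0 ended each of these 4 calls, with adjusted p up to 0.226 over all alternatives. The counted span of S100A13 contains the whole of S100A1 on the other strand and 380 bases of CHTOP, and fragments that overlap 2 genes were not counted, so its level leaves out that stretch.

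The basal-layer gene S100A2 rose in the ΔNp63 line. It stood at 2.72, 4.14 and 5.45 CPM at day 0, at 12.6, 16.4 and 16.6 CPM at day 3, and at 10.9, 14.9 and 16.6 CPM at day 6. The TAp63 libraries were at 3.08, 4.06 and 4.03 CPM at day 0 and at 2.21, 4.31 and 5.28 CPM at day 6, which overlap. The log2 change in the ΔNp63 line was 1.88 ± 0.38 at day 3 and 1.77 ± 0.38 at day 6 (edgeR adjusted p = 0.00831 and 0.0133), and in the TAp63 line 0.44 ± 0.39 and 0.05 ± 0.39 (adjusted p = 1 for both). Leaving out replicate 1 or 2 of ΔNp63 day 0 ended both calls, and leaving out replicate 2 or 3 of day 6 ended the day 6 call, with adjusted p up to 0.0929.

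S100A2 at ΔNp63 day 1 depended on the library that stood apart. The 3 libraries held 5.06, 9.06 and 1.33 CPM, the last being that library. The log2 change from day 0 was 0.56 (edgeR adjusted p = 0.606), and 0.79 without that library (adjusted p = 1). With the replicate number as a block as well, it was 0.91 with an adjusted p of 0.0242, in a fit that called 0.551% of all genes higher.

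S100A8 had the largest fitted change of the 10 and the fewest counts. In the ΔNp63 line it held 1, 3 and 2 counts in replicates 1 to 3 at day 0, 3, 6 and 0 at day 1, 30, 19 and 22 at day 3, and 22, 16 and 7 at day 6. As levels these were 0.0823, 0.170 and 0.131 CPM at day 0 and 1.71, 1.15 and 1.11 CPM at day 6. The TAp63 libraries held 3, 6 and 2 counts at day 0 and 6, 9 and 6 at day 6. The days 3 and 6 libraries of the ΔNp63 line were above those of day 0 without overlap, and the TAp63 libraries overlapped.

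The log2 change of S100A8 in the ΔNp63 line was 3.35 ± 0.47 at day 3 and 3.26 ± 0.48 at day 6 (edgeR adjusted p = 0.000219 and 0.000317), and neither call was lost in 13 alternatives. For the TAp63 line the values were -0.07 ± 0.54 and 1.01 ± 0.48 (adjusted p = 1 for both). S100A8 ran from 1.06 to 1.83 CPM at day 3 of the ΔNp63 line and from 1.11 to 1.71 at day 6. No library of another group was above 0.563 CPM. The gene thus entered the test only through the groups where it was high, which limits what its calls show. A fit without the filter was among the alternatives. The counted model of S100A8 spans 32552 bases, chr1:153390032-153422583, and takes in 90.5% of the span of S100A7A on the other strand. Counts were made over that whole span, introns included and with no strand option, so where in it the fragments fell is not known.

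S100A9, the other calprotectin subunit, was not called in any comparison with day 0. Its ΔNp63 libraries held 3.05, 8.40 and 5.25 CPM at day 0 and 3.04, 3.67 and 3.00 CPM at day 6. The log2 change at day 6 was -0.78 ± 0.46 there (edgeR adjusted p = 0.717) and 0.33 ± 0.44 in the TAp63 line (adjusted p = 1). The TAp63 libraries held 4.31, 5.32 and 4.14 CPM at day 0 and 3.82, 3.88 and 2.49 CPM at day 1, lower without overlap. Calprotectin is abundant in myeloid cells, so a list of 10 myeloid markers was summed in every library. The sum ran from 940 to 1115 CPM at day 0 of the ΔNp63 line and from 526 to 680 CPM at day 6, and nearly all of it was lysozyme, LYZ, at 958 ± 103 and 573 ± 89.9 CPM. CSF1R stood at 24.3 ± 13 and 23.5 ± 10.7 CPM and CD14 at 17.1 ± 1.53 and 15.7 ± 2.11 CPM at days 0 and 6. MPO was at 0 counts in the 3 libraries at day 6, and CSF3R and TYROBP were at 0.151 ± 0.0692 and 0.0527 ± 0.0912 CPM there. The part of these markers in the S100A8 and S100A9 levels was not tested.

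**Figure D2:**
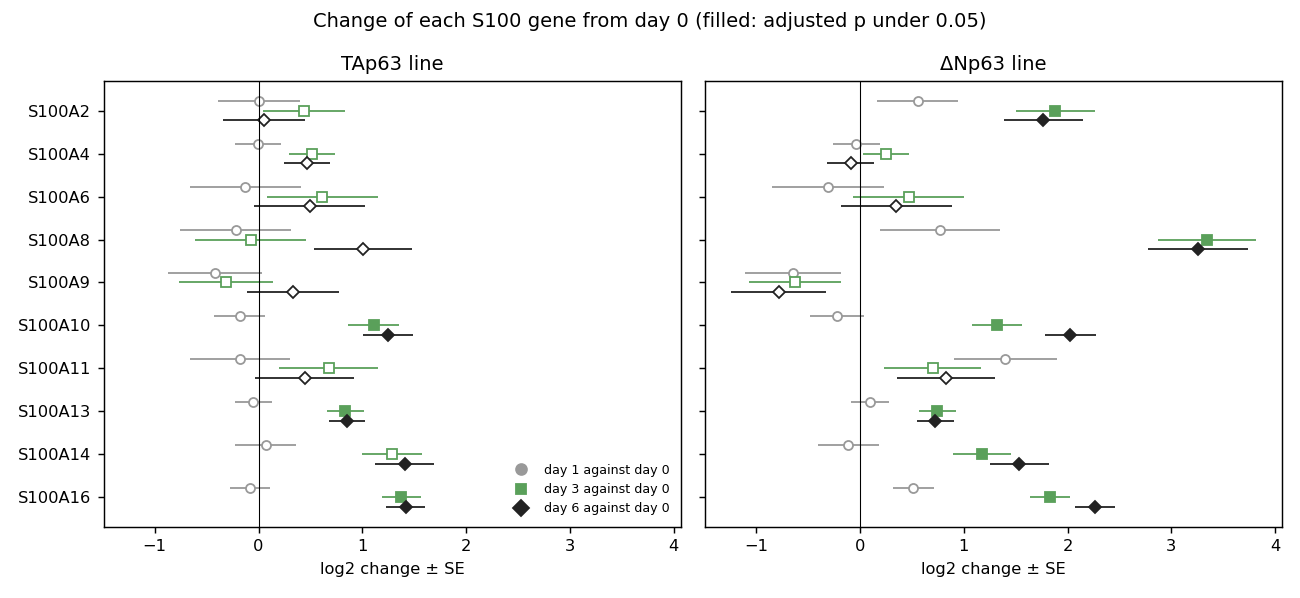
Log2 change ± SE from day 0 for the 10 S100 genes on the vertical axis, in the TAp63 line (left) and the ΔNp63 line (right), at day 1 (circles), day 3 (squares) and day 6 (diamonds), filled where the edgeR adjusted p was under 0.05. All filled symbols lie above 0, and none belongs to day 1. The largest is S100A8 in the ΔNp63 line (3.35 at day 3).

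S100A6, S100A4 and S100A11 were not called against day 0 in the main fit over all libraries, which did not pair the replicate numbers. S100A6 stood at 127, 293 and 235 CPM at day 0 of the TAp63 line and at 132, 454 and 337 CPM at day 6, and at 104, 291 and 211 CPM and 147, 357 and 268 CPM in the ΔNp63 line. Its log2 change at day 6 was 0.49 ± 0.54 in the TAp63 line and 0.35 ± 0.54 in the ΔNp63 line (edgeR adjusted p = 1 for both). The 3 replicates of a group differed more than the days did. Replicate 2 was the highest in 8 of 8 groups and replicate 1 the lowest in 7 of 8, the exception being the group of the library that stood apart. Replicate 1 ran from 104 to 188 CPM over the 8 groups and replicate 2 from 287 to 487 CPM.

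Each same-numbered pair of S100A6 libraries was compared within a line: at days 3 and 6 all 3 replicates were above the day 0 library of their own number in both lines, by 1.04 to 1.81 times. S100A13 also had its lowest value in replicate 1 in 8 of 8 groups. HBG2, a fetal globin, moved with the number too: it ran from 13.2 to 30.4 CPM on the plain library totals in replicate 1, from 0.629 to 6.90 in replicate 2, and, without the library that stood apart, from 0.134 to 0.941 in replicate 3. Its part in the levels of S100A6 and S100A13 was not tested.

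**Figure D3:**
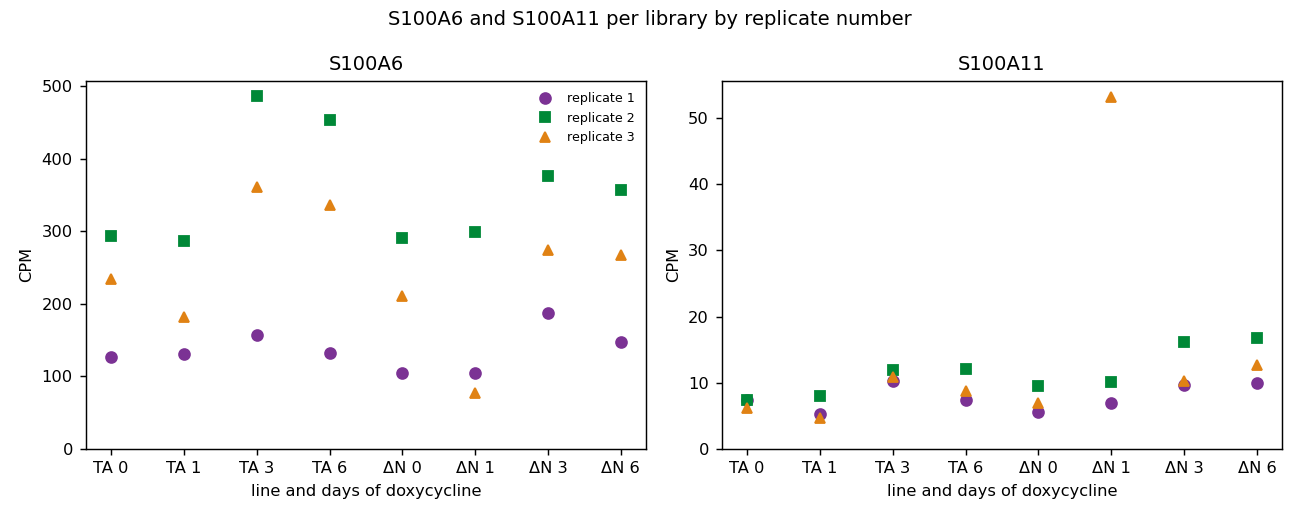
CPM of S100A6 (left) and S100A11 (right) in each library, by line (TA for TAp63, ΔN for ΔNp63) and days of doxycycline, with a symbol for each replicate number. Replicate 2 of S100A6 (squares) lies between 287 and 487 CPM, above the other replicates in all 8 groups, and 1 S100A11 library stands at 53.2 CPM.

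In the fit with the replicate number as a block and without the library that stood apart, S100A6 was called higher at day 3 in the TAp63 line (log2 change 0.56 ± 0.11, edgeR adjusted p = 0.00255). The ΔNp63 line gave 0.54 ± 0.11 at day 3 (adjusted p = 0.000979). S100A6 was also called at day 6 in both (adjusted p = 0.0321 and 0.0243). That fit called 3.2% of all genes higher at day 3 and 2.95% at day 6 in the TAp63 line, and 12.2% and 8.14% in the ΔNp63 line, so a call was more common in it. Under it 7 members were called higher at day 3 and 6 at day 6 in the TAp63 line, and 8 at each day in the ΔNp63 line.

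S100A11, the partner of annexin A1, stood at 5.52, 9.54 and 6.96 CPM at day 0 of the ΔNp63 line, at 9.72, 16.1 and 10.2 CPM at day 3, and at 9.97, 16.7 and 12.6 CPM at day 6. Both later groups were above day 0 without overlap. Its log2 change at day 6 was 0.83 ± 0.47 (edgeR adjusted p = 0.698), and 0.82 ± 0.14 in the fit with the block and without the library that stood apart (adjusted p = 9.94e-05). Against the day 0 library of its own number it was 1.81, 1.75 and 1.82 times higher. The TAp63 libraries held 7.39, 7.35 and 6.10 CPM at day 0, 10.3, 11.9 and 10.8 CPM at day 3, without overlap, and 7.35, 12.1 and 8.71 CPM at day 6. Their log2 change was 0.67 ± 0.48 at day 3 (edgeR adjusted p = 1; 0.00276 with the block and without the library that stood apart). At day 1 the library that stood apart held 53.2 CPM, against 6.87 and 10.1 CPM in the other replicates. The log2 change at day 1 was 1.40 (edgeR adjusted p = 0.214; 1.59 and adjusted p = 0.0407 by DESeq2), and 0.21 without that library (edgeR adjusted p = 1).

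S100A4, a binder of non-muscle myosin, stood at 20.6, 24 and 20.2 CPM at day 0 of the TAp63 line and at 23.4, 34.8 and 31.8 CPM at day 6. The ΔNp63 libraries held 19.3, 23.8 and 21.3 CPM at day 0 and 16.4, 21.8 and 22.4 CPM at day 6. The log2 change at day 6 was 0.47 ± 0.22 in the TAp63 line and -0.09 ± 0.22 in the ΔNp63 line (edgeR adjusted p = 1 for both). With the block and without the library that stood apart it was called higher in the TAp63 line at day 3 (0.52, adjusted p = 0.00267) and day 6 (0.48, adjusted p = 0.00675).

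The lines were compared by testing the difference of their responses. The main fit, without a block, called no member different between them at day 0. It gave 0 members at an unadjusted p under 0.05 and called 0.0128% of all genes (edgeR). DESeq2 called 0 members as well. The difference at day 6 was not called for any member (4 at an unadjusted p under 0.05; DESeq2: 0), nor at day 3 (2 at an unadjusted p under 0.05; DESeq2: 0) or day 1 (2; DESeq2: 0), while edgeR called 0.0831%, 0.0448% and 0% of all genes. These shares are for adjusted calls and are no background for the unadjusted counts. At day 6 the TAp63 response minus the ΔNp63 response was -1.72 ± 0.55 for S100A2 (log2, edgeR adjusted p = 0.767), -2.25 ± 0.70 for S100A8 (adjusted p = 0.782) and -0.85 ± 0.26 for S100A16 (adjusted p = 0.716). S100A8 differed most at day 3, by -3.42 ± 0.73 (adjusted p = 0.16). This gene entered the test only through its ΔNp63 levels at days 3 and 6, which limits what its differences show. That S100A2 and S100A8 were called in the ΔNp63 line only is thus not by itself a difference between the lines.

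With the replicate number as a block and without the library that stood apart, some of these differences were called. S100A2 differed by -1.43 ± 0.27 at day 3 and -1.71 ± 0.28 at day 6 (edgeR adjusted p = 0.00522 and 0.000534). S100A8 differed by -3.41 at day 3 (adjusted p = 0.0266), and its day 6 difference was not called. The limit given above for S100A8 applies to this call as well. S100A16 differed by -0.86 ± 0.15 at day 6 (adjusted p = 0.000828) and S100A4 by 0.58 ± 0.15 in the other direction (adjusted p = 0.0443). That fit called 0.944% of all genes at day 3 and 1.87% at day 6. TP63 also reached a higher level in the ΔNp63 line at day 6, 926 against 655 CPM, and its part in these differences was not tested.

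**Figure D4:**
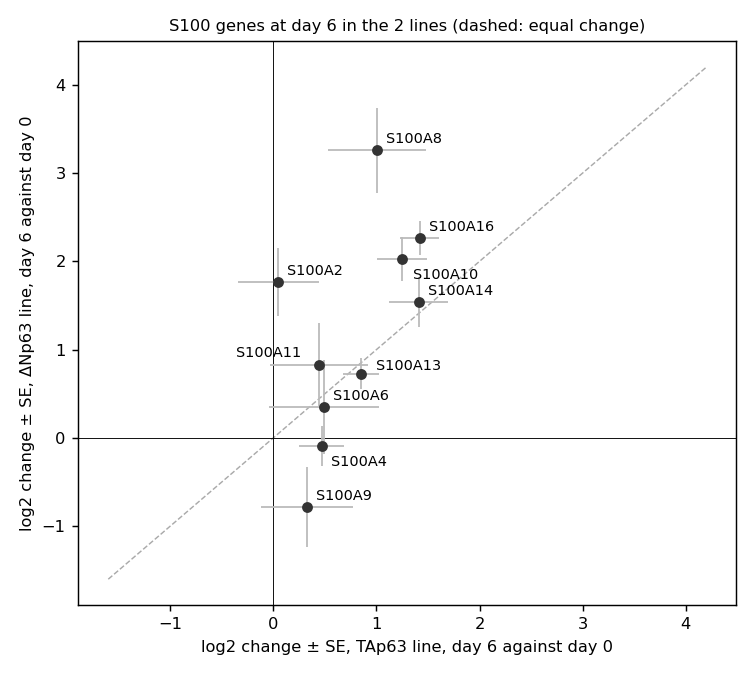
Log2 change ± SE at day 6 against day 0 in the TAp63 line (horizontal axis) and the ΔNp63 line (vertical axis), with a point per S100 gene and a dashed line where the changes are equal. S100A2 (0.05 and 1.77) and S100A8 (1.01 and 3.26) lie farthest above the dashed line and S100A9 (0.33 and -0.78) farthest below it.

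Levels were compared between genes per kilobase of counted span, introns included. Spans ran from 1393 bases for S100A6 to 32552 bases for S100A8. The order per kilobase depends on that length and is not an order of transcript levels. At day 0 of the TAp63 line S100A14 had 5.96 CPM and S100A13 37.9 CPM, the reverse of their order per kilobase. S100A6 was the highest of the 10 in all 8 groups, at 157 ± 60.8 CPM per kb at day 0 of the TAp63 line and 145 ± 67.4 in the ΔNp63 line. S100A4 came next at day 0, at 9.90 ± 0.955 and 9.81 ± 1.04 CPM per kb, and S100A14, S100A13 and S100A16 followed between 2.09 and 3.26 CPM per kb. In the ΔNp63 line at day 0 S100A14, S100A13 and S100A16 overlapped their neighbours in that order. S100A11 and S100A9 overlapped as well, as did S100A2 and S100A10 at 0.866 and 0.669 CPM per kb, and S100A8 was last at 0.00393 CPM per kb.

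By day 6 of the ΔNp63 line the order had changed behind S100A6. S100A16 stood at 10.0 ± 1.25, S100A14 at 9.54 ± 2.09 and S100A4 at 9.25 ± 1.5 CPM per kb, with overlapping libraries. S100A2 (2.98 CPM per kb), S100A11 (2.91) and S100A10 (2.73) overlapped too, and S100A9 had passed below them at 1.02 CPM per kb. S100A8 was still last, at 0.0407 CPM per kb. On the CPM scale the 10 genes summed to 196, 410 and 312 CPM at day 0 of the ΔNp63 line and to 363, 597 and 495 CPM at day 6. S100A6 made up 53%, 71% and 67.7% of the sum at day 0 and 40.6%, 59.8% and 54.1% at day 6.

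Of 11 other S100 genes, 10 had a row and 2, S100A5 and S100P, passed the filter. S100P, known from the placenta and from gastrointestinal and pancreatic epithelium, was called lower in the ΔNp63 line, where 0.537% of all genes were called lower at day 3 and 0.416% at day 6. It stood at 25.7, 25 and 20.4 CPM at day 0, at 11.9, 10.5 and 9.28 CPM at day 3, and at 10.4, 14.3 and 13.3 CPM at day 6, without overlap. The log2 change was -1.17 ± 0.20 at day 3 and -0.91 ± 0.20 at day 6 (edgeR adjusted p = 0.00172 and 0.016). The TAp63 line gave -0.46 ± 0.20 at day 3 (adjusted p = 0.91), where the libraries did not overlap those of day 0, and -0.11 ± 0.20 at day 6 (adjusted p = 1). The difference between the lines was 0.71 ± 0.28 at day 3 and 0.80 ± 0.28 at day 6 (adjusted p = 1 and 0.957).

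S100A5, a member best known from the olfactory epithelium, changed by 0.65 ± 0.27 at day 6 of the ΔNp63 line (edgeR adjusted p = 0.399; 0.0209 with the block and without the library that stood apart). The remaining 8 genes were too low to test. S100A7, psoriasin, a gene of inflamed squamous epithelium, held 2 to 5 counts per group, S100Z 2 to 12, S100B at most 4, S100A12 at most 2, and S100A7A 1 count in all 24 libraries. S100A7A shares 90.5% of its span with S100A8, where fragments go uncounted, so its low count does not show absence. S100A1, S100A3 and S100G were at 0 in all libraries, and each lies wholly within another counted gene (S100A13, LOC101928034 and CTPS2), where fragments shared by both are not counted, so a 0 there does not show absence.

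The fused-type S100 genes code for large cornified-envelope proteins that carry an S100 domain at one end, and they lie in the same part of chromosome 1. All 7 had a row and 2 were tested. CRNN (cornulin), a gene of the esophageal surface, went from 142 counts in the 3 libraries at day 0 of the ΔNp63 line to 369 at day 6, or 3.15 ± 0.406 to 11 ± 1.63 CPM. TCHH (trichohyalin) went from 1.12 ± 0.239 to 3.82 ± 1.62 CPM. Both were called higher at day 6 in the ΔNp63 line (log2 change 1.80 and 1.77, edgeR adjusted p = 0.0158 and 0.0208, with 1.62% of all genes called higher) and neither was called in the TAp63 line (0.93 and 0.78, adjusted p = 1). FLG (filaggrin), which shares part of its span with an antisense gene, held 1 count at day 0 of the ΔNp63 line and 11 at day 6.

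Among 20 annexins and other intracellular partners, 17 were tested, and 1 was called against day 0: ANXA2, annexin A2, the partner of S100A10. It stood at 161, 142 and 110 CPM at day 0 of the ΔNp63 line and at 272, 242 and 214 CPM at day 6, without overlap. The log2 change was 0.82 ± 0.20 (edgeR adjusted p = 0.0272), in a comparison that called 1.62% of all genes higher. The TAp63 line gave 0.70 ± 0.20 at day 6 (adjusted p = 0.234), and the difference between the lines was -0.12 ± 0.28 (adjusted p = 1). The median log2 change of the 17 was 0.02 at day 6 in the ΔNp63 line.

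Of 9 receptors and extracellular partners, 6 were tested, and none was called by edgeR in the comparisons with day 0. The lowest edgeR adjusted p was 0.184, for CD33 at day 1 of the ΔNp63 line. CD33 held 53.2 CPM there in the library that stood apart, against 1.52 and 0.181 CPM in replicates 1 and 2. In that line 1 gene had an unadjusted p under 0.05 at each of days 1, 3 and 6. DESeq2 called 1, CD69, at day 1 of the ΔNp63 line, where the library that stood apart belongs and DESeq2 called 2.36% of all genes higher. With the block and without that library, BSG (basigin, a receptor described for S100A8 and S100A9) was called higher at days 3 and 6 in both lines and PLG at those days in the ΔNp63 line. That fit called 3.2% and 2.95% of all genes higher at days 3 and 6 in the TAp63 line and 12.2% and 8.14% in the ΔNp63 line. BSG stood at 1892 ± 442 CPM at day 0 and 2567 ± 486 CPM at day 6 of the ΔNp63 line.

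Markers of other cell identities were summed beside these results. The 8 squamous markers KRT4, KRT5, KRT13, KRT14, KRT15, TRIM29, DSG3 and DSC3 summed to between 38.7 and 48.6 CPM at day 0 of the ΔNp63 line and between 235 and 312 CPM at day 6. The TAp63 line, where S100A2 was not called, held between 39.8 and 58.5 CPM at day 0 and between 64.0 and 74.6 CPM at day 6. TRIM29 (122 ± 6.83 CPM) and KRT13 (82.7 ± 23.8 CPM) made up most of the ΔNp63 sum at day 6, up from 27 ± 5.07 and 8.43 ± 2.13 CPM at day 0. From day 0 to day 6 of that line KRT15 went from 8.12 ± 3.09 to 32.6 ± 6.2 CPM. KRT5 went from 0.641 ± 0.108 to 22.5 ± 3.46 CPM and KRT4 from 0.728 ± 0.131 to 5.88 ± 1.68 CPM. At day 6 KRT14 held 0 counts and DSG3 and DSC3 1 count each. The 8 fibroblast markers summed to between 42.5 and 50.0 CPM at day 0 of that line and between 37.9 and 47.9 CPM at day 6, with THY1 at 0 in both groups. Within that list PDGFRA went from 28.8 ± 0.964 to 18.7 ± 1.54 CPM and COL1A1 from 15.4 ± 3.2 to 20.9 ± 4.61 CPM. The part of either list in the S100 changes was not tested.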

How the data were processed

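Per the labels' protocols, TRIzol RNA went into NEBNext Ultra libraries for a NextSeq sequencer. Per the submitters' processing notes, HISAT2 2.1.0, featureCounts 1.6.1, DESeq2 (no version) and hg38 were used. The deposited values are raw counts per gene; per the file headers they came from featureCounts 2.0.0, a version other than that in the notes, over whole transcript spans of UCSC refGene, introns included, with fragments of paired reads, no strand option and no option for multi-mapping or overlapping fragments. The deposited table also gives each gene's counted length, which was used for levels per kilobase. Multi-mapping fragments between S100 copies and fragments shared by overlapping genes therefore go uncounted.

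The main test was the quasi-likelihood test of edgeR 4.0.16 under R 4.3.3, after filterByExpr and TMM, in 1 model of 24 libraries and 8 group means with 16 residual degrees of freedom. The call threshold was a Benjamini-Hochberg adjusted p under 0.05 over 15642 genes. CPM used TMM-adjusted totals. The code was tested on simulated data. No replicates agreed within sampling noise (lowest chi-square per degree of freedom 5.05). Alternatives were DESeq2 1.42.0, its size factors in edgeR, no filter, only the groups compared, the replicate block, and each library left out. The 10 members, the partner and marker lists and the rule for named genes (all members, every other S100 gene with a row, and from each list those called against day 0) were chosen with earlier results of these data known.

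Replicate numbers come from the sample titles. Outside the ΔNp63 day 1 group, deviations from group means correlated over 0.1 in all 63 same-numbered pairs (lowest 0.16, median 0.503). The numbers were thus taken to pair those libraries, and with that group 83.3% of 84 pairs correlated over 0.1. The main test left this pairing out, and only the fits with the replicate block used it. In the main test, differences between replicate numbers therefore stay in the spread. The result of a marker gene is not reported here.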

Additional observations from a re-analysis of the deposited data

How the results depend on the processing

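Of 26 called changes of the 10 genes, 0 reversed under their 334 alternatives and 70 of those alternatives ended a call; 9 of the 19 calls against day 0 were never lost. With only the groups compared in the fit, 2 members were called in the TAp63 line at day 6 and 1 from day 1 to day 3. In the ΔNp63 line 0 were called from day 1 to day 3, in a fit that held the library that stood apart. DESeq2 called 1 at ΔNp63 day 1 (S100A11). The cause of these moves was not tested.

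The replicate block alone raised the count from day 1 to day 3 of the ΔNp63 line to 7, with 2.31% of all genes called higher. Among comparisons with day 0 it added S100A14 at TAp63 day 3 (0.793% of all genes) and ended no call. The block without ΔNp63 day 1 replicate 3 called 7 at TAp63 day 3, 7 from day 1 to day 3 of the TAp63 line, 8 in that step of the ΔNp63 line, 2 from day 3 to day 6 there (S100A10 and S100A16), 1 at ΔNp63 day 1 (S100A2), and 2 and 3 differences between the lines at days 3 and 6. In the same order, that fit called 3.2%, 2.5%, 3.69%, 0.64% and 0.551% of all genes higher. For the differences between the lines it called 0.944% and 1.87% of all genes.

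Leaving out 1 library gave 1 to 4 members at TAp63 days 3 and 6 and from day 1 to day 3 of that line, 0 to 1 at ΔNp63 day 1, 3 to 6 at ΔNp63 day 3 and from day 1 to day 3 of that line, 4 to 6 at ΔNp63 day 6, and 0 in the other comparisons. Counts of 1 at TAp63 day 3 followed from leaving out any of the 6 libraries compared, and the counts of 3 at ΔNp63 day 3 from replicate 1 or 2 of its day 0. Uncalled log2 changes that turned sign when 1 library was left out were S100A2 at TAp63 day 6 (-0.206 to 0.336) and at ΔNp63 day 1 (-0.016 to 0.801), S100A4 at ΔNp63 day 6 (-0.167 to 0.042) and S100A8 at TAp63 day 3 (-0.532 to 0.244). Depth limits S100A8, which held 1 to 3 counts per library at ΔNp63 day 0.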

Other observations

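For each called S100 gene the tested genes outside the family with the most similar course were listed, by Pearson's r of the mean log2 CPM over the 8 groups. The groups share days and libraries, so r describes these libraries and carries no test. S100A2 ran closest to ANKRD65 (r = 0.996) and ALDH4A1, a mitochondrial enzyme of proline breakdown (0.992, and first at 0.990 without the library that stood apart). ALDH4A1 went from 54.3 CPM at day 0 to 111 CPM at day 6 in the ΔNp63 line and stood at 57.6 CPM at day 6 in the TAp63 line. S100A8 ran close to DUOX1, an epithelial oxidase that makes hydrogen peroxide (0.979, and 0.985 without that library), which went from 3.92 to 12.6 CPM in the ΔNp63 line. S100A10 ran close to ZNF185 (0.987) and the simple-epithelial keratin KRT19 (0.986) with all libraries, and to GPNMB (0.992) and CD59 (0.990) without that library.

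S100A16 ran closest to CLIC3 (0.986) with all libraries and to ACE (0.995) without that library, and S100A13 close to SH3BGRL3 (0.981 and 0.991). Among the members, S100A14 and S100A10 had r = 0.984 and S100A14 and S100A16 0.920, which became 0.976 and 0.989 without that library. S100A2 and S100A13 had the lowest value among the called members, 0.557 and 0.472.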
